A study of Mus musculus with 17 samples.

Results

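Msc encodes musculin, also called MyoR, a basic helix-loop-helix (bHLH) transcription factor. It was examined here together with 4 genes of the same family: its close relative Tcf21 and the E protein genes Tcf3, Tcf4 and Tcf12. The 5 genes were taken by symbol from a table of 25198 genes, and all 5 were present in it. Msc had been picked because its fall was the strongest in these same libraries and because it differed between the Control batches, so both of those differences are given for Msc as descriptions, without a test. The other 4 genes were taken as its relative and possible partners.

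bHLH factors bind DNA as dimers at short sites called E-boxes. Tissue-restricted members such as musculin and TCF21 pair with the broadly expressed E proteins, namely E2A (from Tcf3), E2-2 (from Tcf4) and HEB (from Tcf12). Id proteins have the helix-loop-helix but lack the DNA-binding part, and they hold E proteins in inactive pairs. Musculin is known chiefly as a repressor, in the precursors of facial muscle, where it acts beside TCF21, and in activated lymphocytes; TCF21 is known in the embryonic gonad as a repressor of Nr5a1.

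The samples were antral follicles of CD1 mice 16 days old, grown for 8 days in eIVFG, a culture system in which follicles are encapsulated and grown in vitro, with 3 follicles pooled in each sample. The 6 Tyrphostin libraries came from follicles given human chorionic gonadotropin (hCG), the hormone used to start ovulation, with 10 µM Tyrphostin-AG1478, an inhibitor of the EGF receptor kinase dissolved in DMSO, over 4 h. The 11 Control libraries carry only the word Control. Their treatment text is that of the Tyrphostin samples, so whether they received hCG and vehicle is not stated. By the labels, batch 1 holds 6 Control and 3 Tyrphostin libraries and batch 2 holds 5 and 3, and the Control library names carry a set number (sets 1 and 2 in batch 1, and sets 4, 5 and 6 in batch 2). Nothing says which samples share animals or cultures, so p-values measure the spread between libraries, which may be partly technical.

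Library totals ran from 1820545 to 8291024 counts, and a floor of 3 counts was worth 0.336 to 1.64 CPM (counts scaled to library size, here by the TMM method of edgeR). Granulosa transcripts marked every library: the 6 granulosa markers summed to 38934 to 52769 CPM in Control and 34867 to 51044 CPM in Tyrphostin libraries, nearly all of it Inha, while Foxl2 and Amh were too low to test. Of the 4 granulosa markers tested, 3 were higher in Tyrphostin libraries: Cyp19a1 by 2.35, Nr5a2 by 2.18 and Fshr by 0.83 on the log2 scale (edgeR adjusted p = 2.84e-07, 8.38e-09 and 0.0344). The theca and stroma markers, 9 genes, summed to 269 to 766 CPM in Control and 275 to 422 CPM in Tyrphostin libraries of batch 1, and to 444 to 2165 and 821 to 3090 CPM in those of batch 2, with the highest sum in Tyrphostin 5. The mitochondrial share of counts was 0.175% in Control 7 and 0.781% to 2.83% elsewhere. In bulk samples, fewer cells of a type and less RNA per cell cannot be told apart.

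Genes of 1 family can share reads where their transcripts are identical. Over all annotated transcripts, UTRs included, the longest identical runs shared with Msc were 15 bases in Tcf21, 13 in Tcf3, 37 in Tcf4 and 45 in Tcf12. Between the E protein genes, the coding sequences of Tcf3 and Tcf4 aligned over 265 bases (83.8% identical), those of Tcf3 and Tcf12 over 265 (77.0%), and those of Tcf4 and Tcf12 over 1392 (71.0%, with gaps). The longest identical run between E protein transcripts was 47 bases, in Tcf4 and Tcf12.

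Msc lies on chromosome 1 (14753346 to 14755992), Tcf21 and Tcf3 on chromosome 10 (22817281 to 22820174 and 80409514 to 80433647), Tcf12 on chromosome 9 (71842688 to 72111871) and Tcf4 on chromosome 18 (69343356 to 69689079). Msc and Tcf21 are each overlapped on the opposite strand by an annotated gene, Gm9947 and Gm10824, neither of which has a row in the table. The span of Tcf12, introns included, is overlapped by 11 annotated genes. Of these, 4 lie on the opposite strand: Gm18821, Gm27152, Gm27450 and Rpl15-ps2. Tcf4 is overlapped by 1 gene, on its own strand. Whether these genes share exons with Tcf12 or Tcf4 was not examined. Smart-Seq2 cDNA does not mark the strand, so reads from such a partner cannot be told apart from those of the gene. Tcf3 and Tcf4 are also older names of Tcf7l1 and Tcf7l2, which are Wnt effectors of another family; these have rows of their own in the table and were not used as members.

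Msc was abundant in Control follicles and low in Tyrphostin follicles, and within each treatment group its level was lower in batch 2. In Control libraries of batch 1 its lowest, median and highest levels were 331, 411 and 616 CPM. In Tyrphostin libraries of batch 1 the values were 14.3, 27.8 and 30.6 CPM (Tyrphostin 1 to 3). In Control libraries of batch 2 they were 45.9, 71.0, 94.7, 52.9 and 59.1 CPM (Control 7 to 11), and in Tyrphostin libraries 3.84, 3.50 and 2.05 CPM (Tyrphostin 4 to 6). The 4 groups do not overlap. Each Tyrphostin group lies below the Control group of its batch, and the Tyrphostin libraries of batch 1 lie below the Control libraries of batch 2. The lowest Control library exceeded the highest Tyrphostin library by 10.8 times in batch 1 and 11.96 times in batch 2, but by 1.4995 times over both batches. Such a complete separation, with every Tyrphostin library below every Control library, was seen for 1.00% of the 9603 genes tested; since Msc was chosen by this contrast, nothing is read from it.

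**Figure D1:**
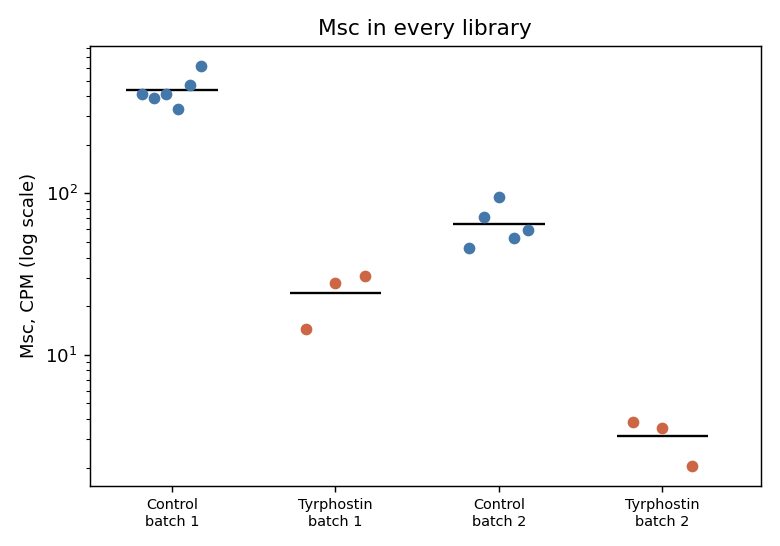
Msc level in each library, in CPM on a log axis, by treatment and batch; points are libraries and black lines are group means (438, 24.3, 64.7 and 3.13 CPM from left to right). The 4 groups do not overlap, and in both batches the Tyrphostin libraries lie below the Control libraries.

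With batch as a term, the log2 fold change of Msc was -4.25 ± 0.25 (SE; edgeR quasi-likelihood fit of all 17 libraries), a 19.0-fold lower level. It ranked first from the lowest among the 9603 log2 fold changes. Among the 835 called genes with an average log2 CPM of at least 3, the next below Control after Msc were Spp1 (-3.84 ± 0.82, SE) and Adcyap1 (-3.57 ± 0.64). Whichever library was left out, the Msc value stayed between -4.36 and -4.12.

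The drop was present in both batches. This too is a description, since it is drawn from libraries that served to choose Msc. The log2 fold change was -4.18 ± 0.34 (SE) in batch 1 and -4.35 ± 0.37 in batch 2. The difference between these (batch 2 minus batch 1) was -0.17 ± 0.41 (SE), with a 95% interval from -0.97 to 0.62 in the edgeR fit.

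The batch difference in Msc was present in both treatment groups. Among Control libraries Msc averaged 438 CPM ± 97.8 (SD, n = 6) in batch 1 and 64.7 CPM ± 19.1 (SD, n = 5) in batch 2, a log2 difference of -2.75 ± 0.24 (SE) that was itself a reason for choosing the gene. By set, the Control means were 404 and 472 CPM in sets 1 and 2, and 58.5, 94.7 and 56.0 CPM in sets 4, 5 and 6, so each batch 2 set lay below each batch 1 set. The Tyrphostin libraries served to choose Msc by its fall, so their batch difference too is given as a description, without a test. In these libraries Msc averaged 24.3 CPM ± 8.70 (SD, n = 3) in batch 1 and 3.13 CPM ± 0.951 (SD, n = 3) in batch 2. The log2 difference was -2.94 ± 0.39 (SE; edgeR adjusted p = 0.00230 over 9918 genes, of which 3.96% were called). This call held when any Tyrphostin library was left out, with an edgeR adjusted p of at most 0.0178.

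The low values rest on few counts. Tyrphostin 6 held 11 Msc counts, with an exact 95% Poisson interval of 5.49 to 19.7, and Tyrphostin 5 held 13 (6.92 to 22.2). Control libraries held 175 to 1758. The intervals cover counting error only.

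Markers of the cells in which musculin is best known were at low levels. Of the muscle markers, Myod1 had no count in any library, and Myf5 and Myog summed to 4 and 3 counts over all 17. Acta1 held the most counts of the list, 54 over all 17. The 6 muscle markers together summed to at most 3.95 CPM in any library. The 5 T cell markers summed to at most 5.08 CPM. Of these, Foxp3 alone passed the filter, at a mean of 2.22 CPM in Control and 2.41 CPM in Tyrphostin libraries. In Tyrphostin libraries of batch 2 the T cell sum was 3.17 to 3.70 CPM, where Msc was 2.05 to 3.84 CPM. The theca and stroma sums given above ran higher in batch 2, where Msc was lower, with overlapping ranges in Control libraries; their part in the batch difference was not tested.

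Tcf21, the relative of Msc, was barely detected. It had 26 counts over the 11 Control libraries and 17 over the 6 Tyrphostin libraries, with no count in 6 Control and 1 Tyrphostin library. The highest count was 7 (Control 7 and Control 10), at 1.84 and 1.34 CPM. The values were 0 to 1.84 CPM in Control and 0 to 0.823 CPM in Tyrphostin libraries, so the groups overlap fully. Tcf21 did not pass the filter on low counts, and no difference was detectable at this depth.

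The E protein genes were expressed at low to middle levels and did not change with treatment by the test used. Of the 3, 0 passed an adjusted p of 0.05 between Tyrphostin and Control in edgeR, where 10.6% of all 9603 genes did; 0 had an unadjusted p under 0.05. Over limma-voom, DESeq2 and the other alternatives, their adjusted p ran from 0.214 to 0.999. A test that misses the threshold does not show equal levels, so the intervals are given for each gene.

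Tcf3 encodes the E12 and E47 proteins. It ranged from 9.16 to 25.2 CPM in Control (median 15.3) and was 11.0, 12.4, 24.6, 10.6, 9.16 and 13.99 CPM in Tyrphostin 1 to 6. All but Tyrphostin 3 lay at or under the Control median. On the log2 scale the difference was -0.15 ± 0.23 (SE), with a 95% interval from -0.60 to 0.30 and an edgeR adjusted p of 0.756. Without Tyrphostin 3 it was -0.38.

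Tcf4 encodes E2-2, best known in plasmacytoid dendritic cells and in the nervous system. It ranged from 19.1 to 79.8 CPM in Control (median 33.4) and was 34.4, 37.3, 45.7, 37.6, 32.3 and 64.9 CPM in Tyrphostin 1 to 6. No Tyrphostin library left the Control range, though 2 of 3 in batch 1 lay above every Control library of that batch. The log2 difference was 0.13 ± 0.23 (SE), with a 95% interval from -0.32 to 0.58 and an edgeR adjusted p of 0.797. Its values were 0.49 ± 0.31 in batch 1 and -0.28 ± 0.32 in batch 2, and the difference of -0.77 ± 0.44 (SE) had an unadjusted edgeR p of 0.0973 and an adjusted p of 1.00. In this interaction test edgeR called 0 of 9603 genes (0%), with 342 at an unadjusted p under 0.05, and limma-voom also called 0.

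Tcf12 encodes HEB, an E protein also needed in developing T cells. It ranged from 6.82 to 22.2 CPM in Control (median 14.95) and was 8.90, 15.8, 12.5, 7.96, 7.28 and 19.0 CPM in Tyrphostin 1 to 6. The groups overlap throughout. It differed by -0.27 ± 0.27 (SE) on the log2 scale, with a 95% interval from -0.80 to 0.26 and an edgeR adjusted p of 0.602. The Tyrphostin effect was -0.24 ± 0.38 (SE) within batch 1 and -0.30 ± 0.40 within batch 2.

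**Figure D2:**
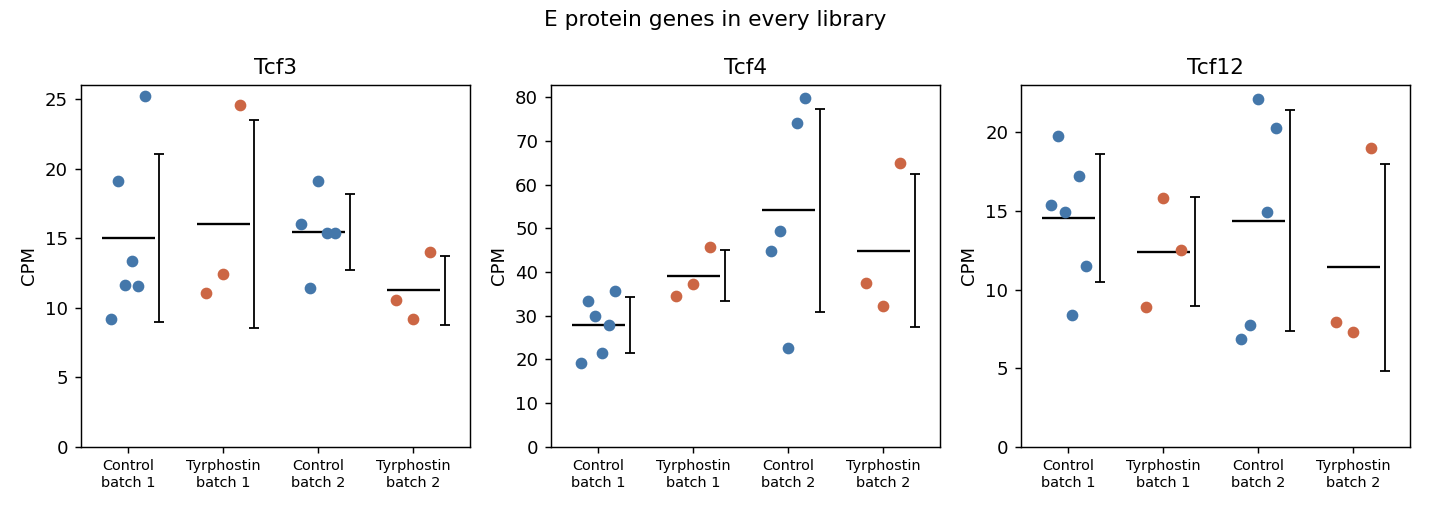
Levels of Tcf3, Tcf4 and Tcf12 in each library, in CPM, by treatment and batch; points are libraries, black lines are means and bars are 1 SD. Control and Tyrphostin libraries overlap for all 3 genes, and among Control libraries Tcf4 averaged 27.9 CPM in batch 1 and 54.2 CPM in batch 2.

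Among the 11 Control libraries, Tcf4 averaged higher in batch 2, but not in every set. The batch 1 values ran from 19.1 to 35.6 CPM (median 28.9), and the batch 2 values were 44.9, 49.4, 22.6, 74.2 and 79.8 CPM. Of the 5 batch 2 libraries, 4 lay above all of batch 1, and Control 9, the only library of set 5, lay within it. By set, the Tcf4 means were 27.5 and 28.3 CPM in sets 1 and 2. They were 47.1, 22.6 and 77.0 CPM in sets 4, 5 and 6, so set 5 lay below both batch 1 sets. The fit took the 11 libraries as separate and did not account for sets. The log2 difference was 0.99 ± 0.28 (SE; edgeR adjusted p = 0.0304), where 11.0% of 9128 genes were called. When each library was omitted in turn, 7 of 11 fits no longer called it (adjusted p up to 0.0878), nor did limma-voom (adjusted p = 0.0640). Tcf3 and Tcf12 differed between the Control batches by 0.06 ± 0.26 and -0.03 ± 0.32 (SE; edgeR adjusted p = 0.917 and 0.967). In Tyrphostin libraries the batch difference of Tcf4 was 0.20 ± 0.30 (SE; edgeR adjusted p = 0.766). Averaged over libraries, Msc and Tcf4 thus differed in opposite directions between the Control batches, Msc by -2.75 and Tcf4 by 0.99 on the log2 scale.

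**Figure D3:**
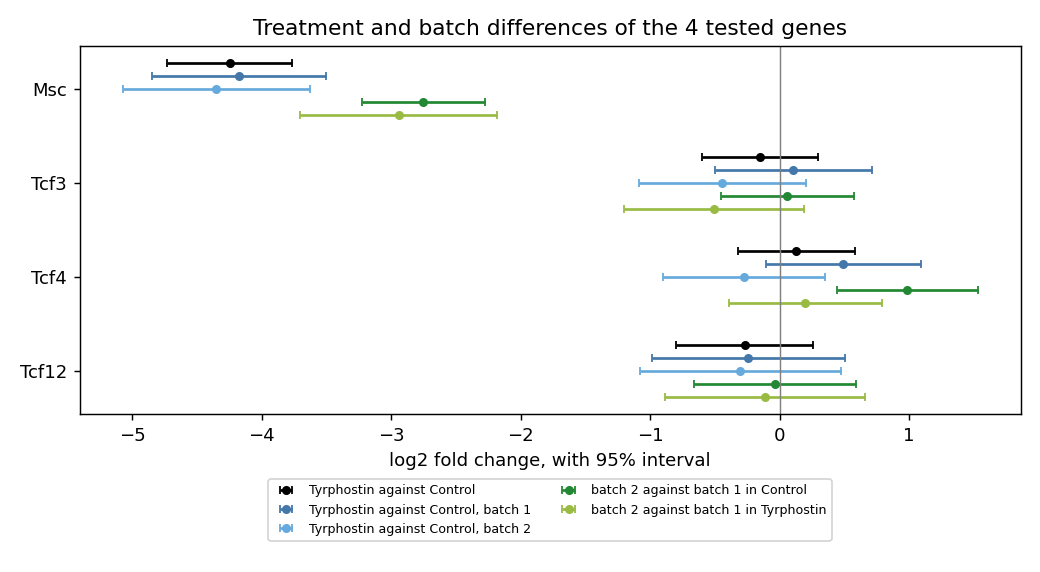
Log2 fold changes of the 4 tested genes with 95% intervals, for treatment over both batches and within each, and for batch within each treatment group. The treatment effects of Msc lie between -4.35 and -4.18 and its batch differences at -2.94 and -2.75, while those of Tcf3, Tcf4 and Tcf12 lie between -0.50 and 0.99.

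To set levels of different genes side by side, CPM was divided by the length in kb of the longest coding transcript of each gene. In Control libraries Msc averaged 154 CPM per kb ± 119 (SD, n = 11), Tcf3 5.16 ± 1.56, Tcf4 4.65 ± 2.41, Tcf12 2.30 ± 0.839 and Tcf21 0.291 ± 0.389. Tcf3 and Tcf4 did not differ beyond their spread, and their order rests on the length used: over the joined exons of all transcripts, Tcf4 has 27382 bases against 4039 in Tcf3. In Tyrphostin libraries the order was Msc 7.87 ± 7.37 (SD, n = 6), Tcf4 4.90 ± 1.41, Tcf3 4.62 ± 1.90, Tcf12 1.89 ± 0.754 and Tcf21 0.269 ± 0.204. These Msc means join batches that differed: in batch 1 Msc was 8.24, 16.0 and 17.6 CPM per kb, above Tcf3 and Tcf4 in 3 of 3 Tyrphostin libraries, and in batch 2 it was 2.21, 2.01 and 1.18, below both in 3 of 3.

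Msc was thus far in excess of the summed E protein transcripts in some groups and below that sum in another. Against Tcf12 alone, Msc was higher in Tyrphostin 4 and 5 (2.21 against 1.26 and 2.01 against 1.16 CPM per kb). It was lower than Tcf12 in Tyrphostin 6 (1.18 against 3.02). The ratios below also rest on the length used. The ratio of Msc to the summed level of Tcf3, Tcf4 and Tcf12, all per kb, was 16.6 to 30.4 in Control libraries of batch 1 and 1.87 to 4.31 in those of batch 2. It was 0.899 to 1.44 in Tyrphostin libraries of batch 1 and 0.0769 to 0.251 in those of batch 2. The E protein sum itself ran from 7.78 to 17.7 CPM per kb in Control and from 8.03 to 15.6 in Tyrphostin libraries, so the ratio moved with Msc. Among the 9568 tested genes with a length, the mean level of Msc ranked 256 from the top in Control batch 1, 1167 in Control batch 2, 2283 in Tyrphostin batch 1 and 6853 in Tyrphostin batch 2. Tcf3 ranked 4252 in Control and 4489 in Tyrphostin libraries. These are transcript levels, and amounts of protein were not measured.

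Genes that act on E proteins or belong to the same superfamily were described from 6 lists of 111 genes. Of these 40 were tested, with a median log2 fold change of -0.01, against 5.42e-05 over all tested genes. By edgeR 3 were called higher and 3 lower, where 4.35% and 6.25% of all tested genes were. On the scale of total counts the median of all genes moved to 0.15, and the higher share of all calls moved from 41.1% to 64.4%; the 6 genes called kept their directions.

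Among Id genes, the inhibitors of E proteins, Id3 rose and Id1 and Id2 were not called. Its Control mean was 192 ± 70.9 CPM (SD, n = 11) and its Tyrphostin mean 280 ± 145 CPM (SD, n = 6). Id3 thus rose by 0.53 ± 0.17 on the log2 scale (SE; edgeR adjusted p = 0.0493). That call lay at the threshold, and 11 of 17 fits with 1 library omitted did not make it. Id1 differed by 0.62 ± 0.30 and Id2 by 0.07 ± 0.22 (SE; edgeR adjusted p = 0.215 and 0.887). Within batch 1 Id1 differed by 1.18 ± 0.38 and Id3 by 0.70 ± 0.24 (SE; edgeR adjusted p = 0.0768 and 0.0981). Within batch 2 they differed by -0.07 ± 0.41 and 0.34 ± 0.25 (SE; edgeR adjusted p = 0.970 and 0.680). For Id1 the interaction was -1.25 ± 0.57 (SE, unadjusted edgeR p = 0.0382) and was not called after adjustment. Id4 had at most 6 counts in a library. Id3 also differed between the batches, by -0.96 ± 0.21 in Control and -1.33 ± 0.30 in Tyrphostin libraries (SE; edgeR adjusted p = 0.00750 and 0.0268). So did Id2, by -1.55 ± 0.28 and -1.75 ± 0.34 (SE; edgeR adjusted p = 0.00199 and 0.0146). Id1 differed by -0.03 ± 0.41 in Control and -1.30 ± 0.31 in Tyrphostin libraries (SE; edgeR adjusted p = 0.975 and 0.0358). Of all genes tested, 11.0% were called between the Control batches and 3.96% between the Tyrphostin batches.

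Among the E protein cofactors, Cbfa2t3 rose. It encodes ETO2, a corepressor that binds E proteins and works in blood cell precursors with TAL1. In Control libraries Cbfa2t3 ranged from 1.303 to 7.61 CPM (median 2.54), and in Tyrphostin 1 to 6 it was 14.8, 19.7, 14.2, 11.0, 22.4 and 16.0 CPM. The Control counts were low, from 3 in Control 6 and Control 9, which is the floor, to 50 in Control 8. In Control libraries of batch 1 the highest count was 18 (Control 2). All 6 Tyrphostin libraries lay above every Control library, as for 0.510% of the genes tested. Cbfa2t3 rose by 2.16 ± 0.27 on the log2 scale (SE; edgeR adjusted p = 1.33e-05), with 2.75 ± 0.36 in batch 1 and 1.58 ± 0.35 in batch 2. The difference between batches was -1.17 ± 0.52 (SE, unadjusted edgeR p = 0.0346) and was not called after adjustment. The other 6 tested cofactors were not called: their log2 fold changes ran from -0.53 (Lmo4) to 0.44 (Kat2b), with the coactivators Ep300 at -0.39 ± 0.18 and Crebbp at -0.07 ± 0.15 (SE). Ep300 was the most abundant, at 67.6 CPM ± 24.7 (SD, n = 11) in Control.

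Tissue-restricted bHLH factors that pair with E proteins were almost absent besides Msc. Of 47 listed, 11 had no count in any library and 1 passed the filter. That gene was Ascl4, known from skin, at a mean of 10.3 CPM in Control (SD 3.31) and 10.1 CPM in Tyrphostin libraries (SD 3.77). Its log2 difference was -0.077 ± 0.22 (SE; edgeR adjusted p = 0.881), and 0.062 with total counts. The next highest was Olig3, with at most 22 counts in a library.

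In the other branches of the superfamily, edgeR called 1 of 6 HES, HEY and BHLHE40 genes, 2 of 16 leucine zipper factors and 1 of 7 bHLH-PAS genes, against 10.6% of all genes tested. Heyl, a Notch-responsive repressor, fell by 1.76 ± 0.42 on the log2 scale (SE; edgeR adjusted p = 0.0106), with a Control mean of 101 CPM (SD 61.6) and a Tyrphostin mean of 33.1 CPM (SD 22.6), and 3 of 6 Tyrphostin libraries, those of batch 2, lay below every Control library. Within batches Heyl differed by -1.15 ± 0.51 in batch 1 and -2.54 ± 0.57 in batch 2 (SE, edgeR adjusted p = 0.222 and 0.0220). Heyl was called within batch 2 and not within batch 1, but the difference between the batches was itself not called. That difference was -1.39 ± 0.71 (SE, unadjusted edgeR p = 0.0645). Bhlhe40, the most abundant of the 6 HES, HEY and BHLHE40 genes tested, differed by -0.79 ± 0.39 (edgeR adjusted p = 0.230). Among 16 leucine zipper factors, Myc fell by 1.32 ± 0.28 (edgeR adjusted p = 0.00323) and its relative Mycn rose by 0.97 ± 0.30 (edgeR adjusted p = 0.0402). The Mycn value was 1.75 ± 0.31 in batch 1 and 0.03 ± 0.32 in batch 2. The difference between these was -1.72 ± 0.46 (SE, unadjusted edgeR p = 0.00103) and was not called after adjustment. With 1 library omitted, 10 of 17 fits did not call the treatment effect of Mycn. Srebf2, the most abundant of that list, differed by -0.11 ± 0.17, and by 0.037 with total counts. Among 7 bHLH-PAS genes tested, Hif1a, the hypoxia-responsive factor, fell by 0.98 ± 0.17 on the log2 scale (SE; edgeR adjusted p = 0.000563), from a Control mean of 1135 CPM (SD 383) to a Tyrphostin mean of 551 CPM (SD 91.9), with 6 of 6 Tyrphostin libraries below every Control library (seen for 1.00% of the genes tested).

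**Figure D4:**
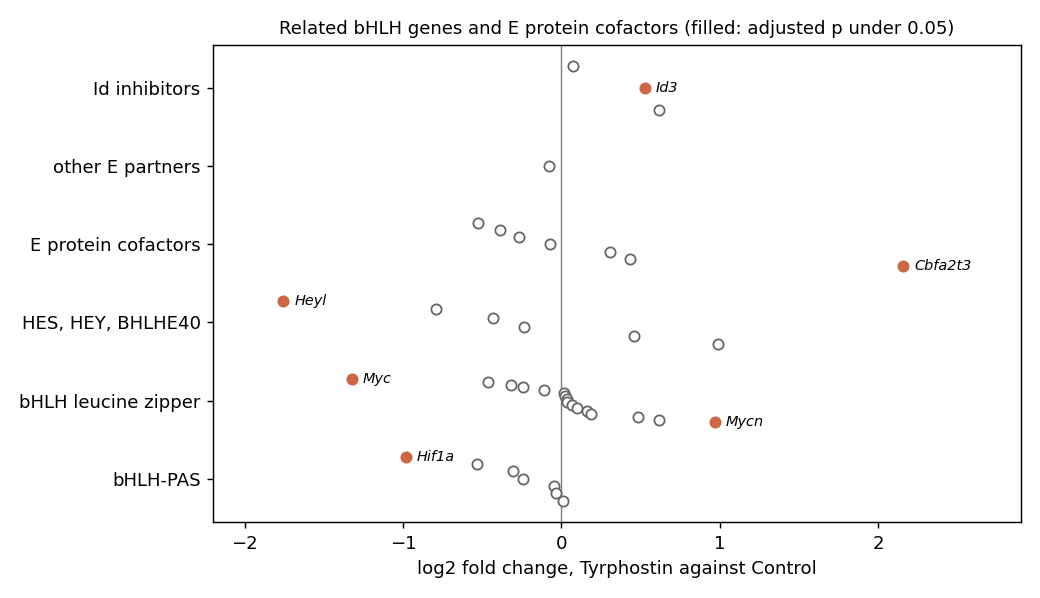
Log2 fold changes between Tyrphostin and Control libraries of the 40 tested genes in 6 lists of related bHLH genes and E protein cofactors; filled points passed an adjusted p of 0.05. The 6 that passed run from Heyl at -1.76 to Cbfa2t3 at 2.16, and the other 34 run from -0.79 (Bhlhe40) to 0.99 (Hey2).

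The protein-coding genes next to the members on their chromosomes were looked at by position, 2 on each side. Of the 20, 7 were tested and 1 was called, where 10.6% of all genes tested were. That gene was Trpa1, which encodes an ion channel of sensory neurons that responds to irritants; it is the coding gene nearest to Msc, 116656 bases away. In Control libraries Trpa1 ranged from 3.41 to 16.4 CPM (median 9.31), and in Tyrphostin 1 to 6 it was 2.15, 1.09, 2.93, 0.823, 0 and 0.933 CPM. All 6 Tyrphostin libraries lay below every Control library, as for 1.00% of the genes tested. Trpa1 fell by 2.77 ± 0.35 on the log2 scale (SE; edgeR adjusted p = 1.15e-05), with -2.52 ± 0.46 in batch 1 and -3.21 ± 0.55 in batch 2. Between the Control batches Trpa1 differed by -0.91 ± 0.31 (SE; edgeR adjusted p = 0.0686). The Trpa1 counts were low, with at most 56 in a library. The other neighbours of Msc, Eya1, Xkr9 and Kcnb2, had at most 12 counts in a library and were not tested, and none of the 6 tested neighbours of Tcf21, Tcf3 and Tcf12 was called.

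**Figure D5:**
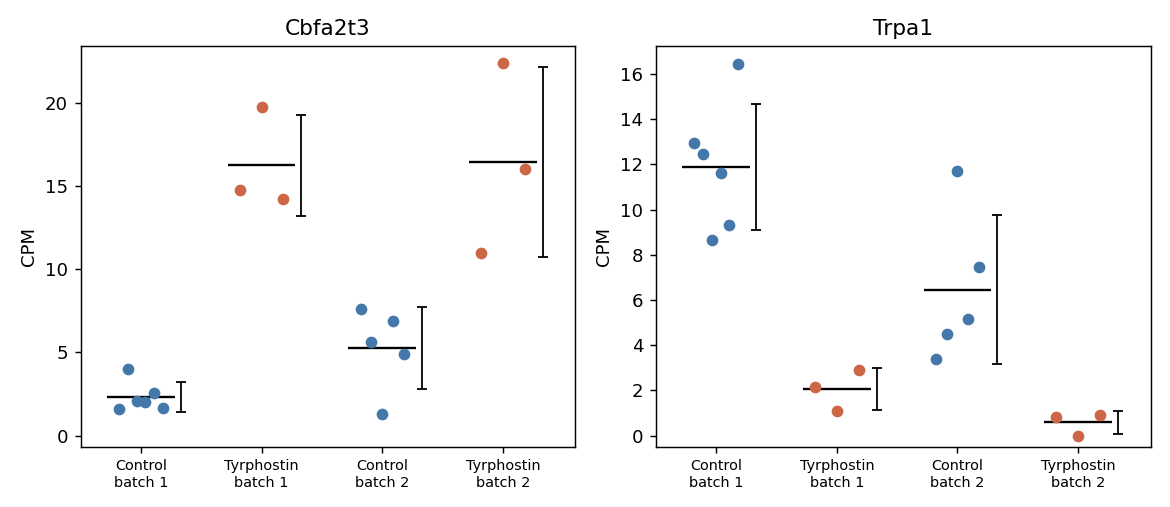
Levels of Cbfa2t3, a corepressor of E proteins, and of Trpa1, the coding gene nearest to Msc, in each library, in CPM; points are libraries, black lines are means and bars are 1 SD. Tyrphostin libraries lie above every Control library for Cbfa2t3 (11.0 to 22.4 against 1.303 to 7.61 CPM) and below them for Trpa1 (0 to 2.93 against 3.41 to 16.4 CPM).

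The pattern of Msc among libraries of the same treatment and batch was compared with that of 6332 other genes, as a description. After the mean of each of the 4 groups was subtracted from log2 CPM, Nipbl, which loads cohesin onto chromatin, was most like Msc, with Pearson r = 0.93 and Spearman rho = 0.94 over 17 libraries. Dock5, Bptf, Shroom4 and Strn4 followed with r from 0.79 to 0.84. The genes least like it were Arl6ip1 (r = -0.85), Ost4 (-0.82) and Suclg2 (-0.81). Without Control 9 and Tyrphostin 1, the 2 libraries farthest from the median of Msc, r was 0.89 for Nipbl. It was then 0.79 for Dock5, 0.81 for Bptf, 0.67 for Shroom4 and 0.66 for Strn4. For Arl6ip1, Ost4 and Suclg2 it was -0.86, -0.79 and -0.83. Of all the genes compared, 99% had an r below 0.65. The E protein genes showed no close likeness, at r = 0.33 for Tcf3, -0.27 for Tcf4 and 0.15 for Tcf12. Points share library depth and composition, and Nipbl itself differed by only -0.25 on the log2 scale between Tyrphostin and Control.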

How the data were processed

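RNA was measured by Smart-Seq2, which counts reads without molecular identifiers. The authors deposited raw counts per gene symbol for 17 libraries, matched to samples by the column names in the labels. The submitters' processing notes name STAR, HTSeq and GRCm38; versions, annotation, strand setting and filters are not given in the sources used here. Of 25198 genes, 3576 had no count.

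From the counts, low genes were removed by filterByExpr on the groups compared, libraries were scaled by TMM, and differences were fitted by robust glmQLFit and glmQLFTest (edgeR 4.0.16, R 4.3.3). P-values were adjusted over all tested genes by Benjamini-Hochberg, at a threshold of 0.05. Treatment was fitted with batch as a term. Treatment effects within each batch and the interaction came from 1 fit of the 4 treatment-by-batch groups. Batch differences within Control and within Tyrphostin were fitted on those libraries alone. The SE is the log2 fold change divided by the square root of F, and its 95% interval is normal. Log2 CPM for likeness used a prior count of 2. Depths and floors stand in the report. Replicates were compared by chi-square; in all 31 pairs within a group and batch the statistic exceeded sampling noise (11.8 to 84.1 per degree of freedom). The code was tested on simulated data for Tyrphostin against Control: edgeR recovered 186 of 200 genes changed by 2 log2 units, among 9380 genes, with 8 false calls. No batch difference was simulated, so the setting was simpler than these data. Alternatives were other scalings and filters, DESeq2 1.42.0, limma-voom (limma 3.58.1), no batch term, summed Control sets, a replicate block, and omission of each library; omission of Control 7 with Tyrphostin 5 was added after seeing the data.

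The members and lists were chosen with earlier results of these data known. Genes outside the members were named when called (up to 6 a list), when most abundant in a list, or by likeness to Msc (the 5 highest and 3 lowest r at an average log2 CPM of at least 3). The neighbours were chosen by position after the data were seen. Trpa1, Lmo4, Kat2b, Crebbp, Id1, Olig3, Hey2, Cyp19a1, Nr5a2, Fshr, Foxp3 and Acta1 were named after their values were seen. Positions and transcripts come from GENCODE M21 (GRCm38). A sequence and a marker list are not reported here.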

Additional observations from a re-analysis of the deposited data

Results flagged for a closer look

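Among 18 groups of 5 or 6 libraries searched (the 5 genes and total counts, in Control batch 1, Control batch 2 and Tyrphostin), 2 held a library far from the others; chance flags about 1 in 20 such groups. Tcf3 reached 24.6 CPM in Tyrphostin 3, against 9.16 to 13.99 CPM in the other Tyrphostin libraries. Control 6 had 1820545 counts in all, while the rest of Control batch 1 ran from 3807300 to 4834875; it also held the highest Msc level, 616 CPM.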

How the results depend on the processing

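Over 11 alternatives the log2 fold change of Msc ran from -4.30 to -4.09, and over 17 fits that left out a library from -4.36 to -4.12; each shift was under the spread between libraries of a group (0.406 on the log2 scale). Of the shifts below, the cause was not tested. For treatment, 1018 genes were called; this became 619 with no batch term and 708 to 1314 when a library was left out. Tcf3, Tcf4 and Tcf12 stayed uncalled throughout, from -0.38 to -0.05, 0.03 to 0.27 and -0.49 to -0.16 when a library was left out.

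Numbers 1 to 6 occur in both Control and Tyrphostin labels. Numbers 1 to 3 join libraries of batch 1, and 4 to 6 join Control of batch 1 to Tyrphostin of batch 2. Deviations from treatment means had r of 0.31 to 0.47 for numbers 1 to 3 and -0.13 to 0.0128 for 4 to 6, and 5 of 6 Tyrphostin libraries correlated best with the Control of their number. From treatment-by-batch means, r was 0.32, 0.0758 and 0.0534 for numbers 1 to 3 and 0.0312 to 0.11 for 4 to 6, with 2 of 6 best matches, so the numbers were taken as names only. With a replicate block and batch on those 12 libraries, where numbers 4 to 6 cannot separate treatment from batch and the estimate rests on numbers 1 to 3, the count was 624, Tcf3 turned to 0.22, Id2 to -0.29, and Id3 (adjusted p = 0.0991) and Heyl (-0.53, adjusted p = 0.452) were not called.

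For named genes outside the members, Ascl4 turned to 0.0623 and Srebf2 to 0.0369 with total counts; Ascl4 turned to 0.0271 with summed Control sets and 0.0305 without Control 7 and Tyrphostin 5. When a library was left out, Id2 ran from -0.0721 to 0.17 and Ascl4 from -0.16 to 0.0624. Id3 and Mycn each lost their call in 4 of 11 alternatives.

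In the interaction test the count of 0 became 79 with no filter on low counts and stayed 0 in all 17 fits that left out a library. The interaction of Tcf12, near 0, turned to 0.0259 in limma-voom and 0.00651 without Control 7 and Tyrphostin 5, and ran from -0.65 to 0.18 when a library was left out; that of Msc ran from -0.45 to 0.0537, of Tcf3 from -0.76 to -0.09 and of Tcf4 from -1.13 to -0.56.

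Within batch 1, Tcf3 ran from -0.33 to 0.32 when a library was left out. Between Control batches the count of 1004 ran from 660 (without Control 3) to 1063, Tcf3 from -0.0511 to 0.24, Tcf12 from -0.23 to 0.14, and Tcf12 turned to 0.15 with total counts. Between Tyrphostin batches the count of 393 was 872 with no filter and ran from 130 (without Tyrphostin 5) to 452, with 219, 209 and 196 without Tyrphostin 1, 3 and 4; Tcf4 ran from -0.18 to 0.39 and Tcf12 from -0.72 to 0.11, and Tcf12 turned to 0.00323 with total counts. Depth limits Tcf21 most, with at most 7 counts in a library.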
